A study of Rattus norvegicus with 12 samples.

Results

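Immediate early response genes are switched on within minutes of a stimulus, and 42 of them were followed here in the lens of a cataract rat and of a clear-lensed control rat. The 42 genes were a given list, and each was read from the probe set that carries its symbol alone, or from the brightest such probe set where there were several. The question was which of them stood high in single 4-week lenses and which were lower at later ages, each against the mean of the 8- and 10-week arrays of its own strain. Of the 42 genes, 41 were measured among 18195 named genes, and Fosl2 was not analysed here. The list was chosen for its levels in these arrays, so its 4-week levels are given as a description with no test.

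The lenses came from male ICR/Ihr rats (ICR), an inbred strain with hereditary cortical cataract, and from Sprague Dawley (SD) rats, whose lenses stay clear. RNA of ICR lenses was hybridized to 3 arrays each at 4 weeks (without cataracts), 8 weeks and 10 weeks (both with cortical opacity), and RNA of SD lenses without cataracts to 1 array at each of the same ages. No treatment is given for any group, and all lenses were taken out of culture medium, ground and extracted with TRIZOL. The time in medium, and whether it was the same for every lens, is not given in the sources used here, and its part in the levels was not tested. The array was the GeneChip Rat Gene 2.0 ST, and the values are log2 signals normalized by Robust Multi-array Average (RMA), so that a difference of 1 is a 2-fold change. Whether the 3 arrays of an age hold RNA of different animals is not stated, and p-values cover the spread between these arrays, which may be technical. Their small number limits the precision, and SD had no replicate at any age.

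Immediate early genes need no new protein to be transcribed. Kinase cascades act on factors already bound to their promoters, such as serum response factor at CArG boxes and CREB at cyclic AMP response elements (CRE), and the transcripts are short-lived. Their products are mostly transcription factors, which pass the signal to later genes, and inhibitors that end it. Growth factors, injury and oxidative stress are known to induce them in many epithelial cells.

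Promoters are shown for 6 members that carry a site of this kind. Of these, Egr1, Zfp36, Ier2 and Btg2 were more than 2-fold high in both of the arrays described below, Ppp1r15a in the SD array alone and Egr2 in neither. RefSeq promoters of build GRCr8, from 250 bases before to 50 bases after the start of the gene, were matched for 32 of the 42 genes. The 220 bases before the start are printed on the strand of the gene, 5′ to 3′, with CRE (TGACGTCA), EGR motif (GCGNGGGCG) and CArG box matches in capitals.
Egr1 (chr18:26736858-26737077, plus strand): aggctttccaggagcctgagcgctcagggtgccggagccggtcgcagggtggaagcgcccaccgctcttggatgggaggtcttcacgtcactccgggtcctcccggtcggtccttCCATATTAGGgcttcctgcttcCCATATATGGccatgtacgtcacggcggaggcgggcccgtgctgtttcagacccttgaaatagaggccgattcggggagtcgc
Egr2 (chr20:21054442-21054661, minus strand): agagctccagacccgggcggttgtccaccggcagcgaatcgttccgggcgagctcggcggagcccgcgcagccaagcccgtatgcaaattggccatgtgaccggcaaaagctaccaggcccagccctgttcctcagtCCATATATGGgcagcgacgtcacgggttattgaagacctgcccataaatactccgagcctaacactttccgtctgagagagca
Zfp36 (chr1:92799109-92799328, minus strand): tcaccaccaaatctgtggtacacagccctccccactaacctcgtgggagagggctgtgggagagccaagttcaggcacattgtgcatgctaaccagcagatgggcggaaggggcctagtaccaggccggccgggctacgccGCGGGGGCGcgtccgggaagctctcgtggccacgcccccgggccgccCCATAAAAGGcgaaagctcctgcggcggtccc
Ier2 (chr19:40399153-40399372, plus strand): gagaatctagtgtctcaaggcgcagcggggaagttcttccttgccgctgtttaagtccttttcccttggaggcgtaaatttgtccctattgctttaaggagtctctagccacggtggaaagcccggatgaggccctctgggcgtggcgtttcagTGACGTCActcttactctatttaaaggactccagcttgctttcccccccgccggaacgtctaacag
Btg2 (chr13:48087691-48087910, minus strand): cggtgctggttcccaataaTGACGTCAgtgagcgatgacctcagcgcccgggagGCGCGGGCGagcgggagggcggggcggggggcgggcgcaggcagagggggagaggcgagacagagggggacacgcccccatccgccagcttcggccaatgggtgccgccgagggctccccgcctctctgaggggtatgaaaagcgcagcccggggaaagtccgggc
Ppp1r15a (chr1:105139597-105139816, minus strand): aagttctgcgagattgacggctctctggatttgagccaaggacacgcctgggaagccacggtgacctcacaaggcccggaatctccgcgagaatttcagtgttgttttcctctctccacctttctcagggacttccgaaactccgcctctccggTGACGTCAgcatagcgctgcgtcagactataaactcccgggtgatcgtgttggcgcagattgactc
In these letters Egr1 shows 2 CArG boxes, Egr2 has 1, and Zfp36 has 1 together with an EGR motif. Ier2, Btg2 and Ppp1r15a each show a CRE, and Btg2 also an EGR motif. Over both strands of the full windows, a CRE was found in 6 of the 32 promoters against 1.83% of all 33469 promoters in the table, and a CArG box in 4 against 1.64%. The EGR motif was found in 11 of 32 against 4.98%, the AP-1 motif (TGANTCA) in 3 against 7.33% and the NF-kB motif in 5 against 7.51%. Matches to different motifs did not overlap in these members, and some NF-kB matches read on both strands. A match describes the letters and not a bound site.

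The study left out genes that stayed under a signal of 5 in every sample, and 5 is used here as the limit of detection. By this limit 6 members were above detection in all 12 arrays, namely Jund, Klf6, Bhlhe40, Btg1, Ppp1r15a and Rhob. Another 10 stayed under it in every array, namely Maff, Egr2, Egr3, Nr4a2, Klf4, Myc, Per1, Ier5, Dusp6 and Errfi1. In ICR, 30 of 41 reached 5 in at least 1 array, and 11 of these did so only in the second of the 4-week arrays (4-week replicate 2). Those 11 were Nr4a1, Nr4a3, Klf10, Csrnp1, Ier2, Nfkbiz, Zfp36l1, Ifrd1, Tnfaip3, Sik1 and Adamts1, so passing this limit was itself set by that array. Btg2, Ifrd1 and Tnfaip3 were named through the supplementary tables of the study, which list them because they changed.

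Over the whole series, each array had 3041 to 3948 genes at a signal of 5 or more, ICR 4-week replicate 1 the most, and array medians lay between 2.74 and 2.95. Pairs of ICR arrays at 1 age had r between 0.959 and 0.981, taken across genes, and genes are no independent replicates. The 8 measured lens epithelium markers and the 8 measured lens fibre markers reached a signal of 5 in at least 1 array, while no leukocyte (11 measured), vessel (6), red cell (3) or cornea (3) marker reached 5 in any array. Same-numbered arrays of different ages shared their deviations from the age groups (r of 0.54 to 0.85 over all genes tested). The sources used here do not say what the number marks.

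In ICR the members did not stand together at 4 weeks, and 1 array stood above the other 2 in most of them. The other 2, replicates 1 and 3, also differed in some members, such as Fos (6.23 and 3.48). In others they were alike, such as Klf6 (6.17 and 6.15). In 4-week replicate 2, 21 of the 41 members were more than 2-fold above the higher of the other 4-week arrays, where 0.489% of all named genes were (1.03% of those that reached 5). Many of the lower values lay under the limit of detection, so the count was repeated with every signal under 5 set to 5, and 15 members remained (0.143% of all named genes). Folds called "at least" are taken against 5 in this way, and differences of signals under 5 are given as recorded. Replicate 2 held the highest 4-week value in 39 members (30.2% of all genes), with Btg1 and Errfi1 as the exceptions, and the highest of all 9 ICR values in 34 (10.2%). The median excess over the mean of the later ICR arrays was 1.22 in replicate 2, against 0.10 in replicate 1 and -0.34 in replicate 3. Over all genes that reached 5 the same medians were -0.04, 0.30 and -0.03. Averaged over the 3 arrays, the members stood 0.34 above the later mean in median, and without replicate 2 they stood at -0.22, with 13 of 41 above it. In whole lenses a higher signal can come from more responding cells or from more RNA per cell, and these cannot be told apart.

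**Figure D1:**
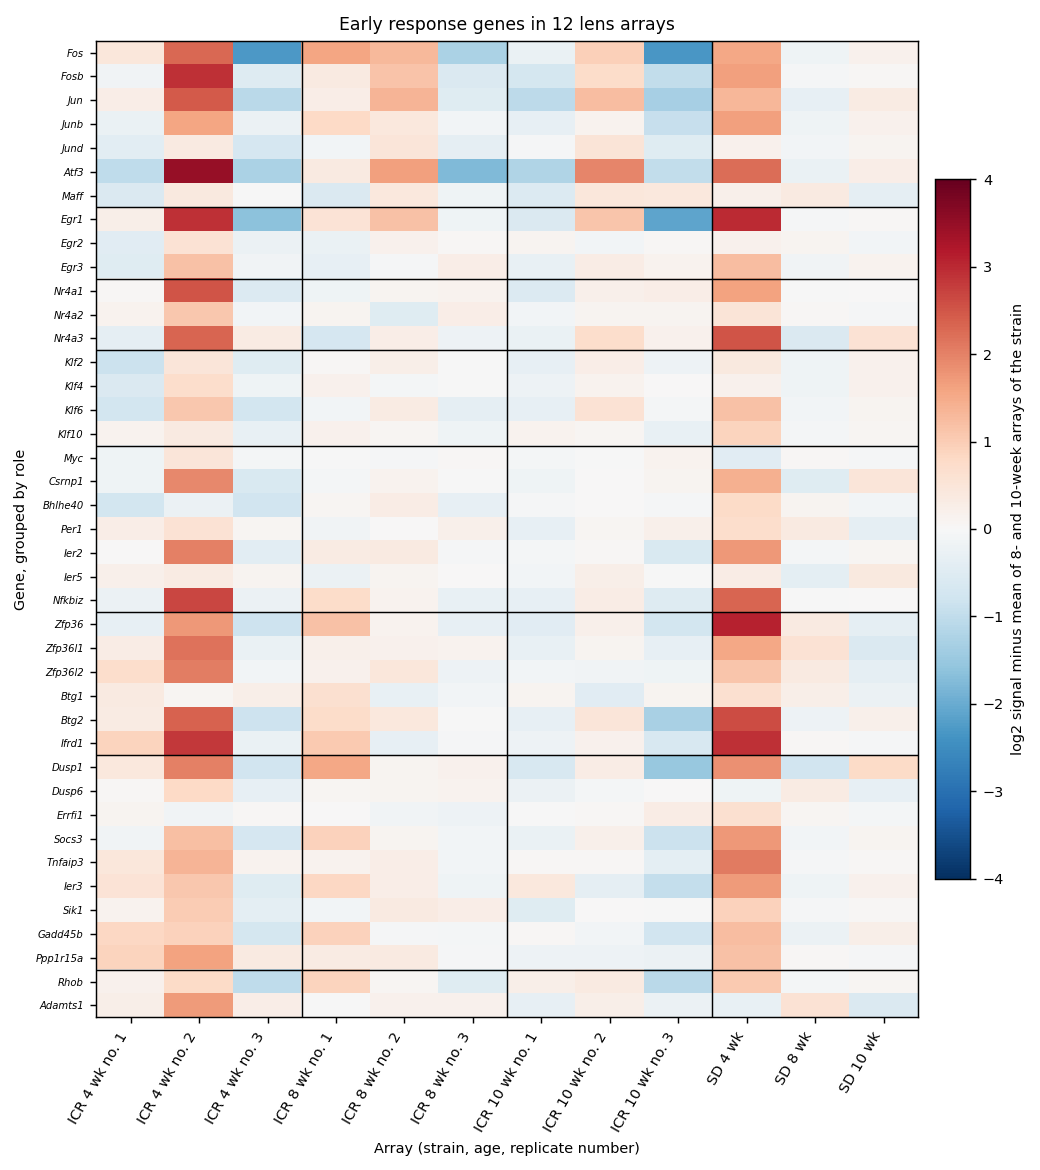
Heat map of the 41 measured members (rows, grouped by role) in 12 arrays (columns, by strain, age and replicate number), coloured by the log2 signal minus the mean of the 8- and 10-week arrays of the strain. ICR 4-week replicate 2 and the SD 4-week array are red for most genes, and replicate 3 is blue for Fos, Egr1 and Jun at 10 weeks. ICR 4-week replicate 1 is above the later mean in 24 of 41 members, 0 of them by more than 2-fold. ICR 4-week replicate 3 is above it in 8.

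Among AP-1 subunits and their partners, which pair to bind DNA, 5 of 7 exceeded 2-fold in replicate 2. Atf3, a stress-induced repressor, had 8.52 in replicate 2 against 4.01 and 3.77 in replicates 1 and 3, both under detection, an excess of at least 11.5-fold. Its 6 later ICR arrays ran from 3.27 (median 4.73) to 7.00, and SD gave 8.15, 5.66 and 6.21 at 4, 8 and 10 weeks. The 2 high 4-week values thus lay above every later value in both strains, and the other 2 lay inside the later range.

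Fosb was 7.35 in replicate 2 against 4.30 and 3.92, an excess of at least 5.11-fold, and its later ICR values lay between 3.45 and 5.56 (median 4.33). In SD Fosb stood at 6.85, 5.16 and 5.24 at the 3 ages. Jun, the main partner of the Fos proteins, was 8.45 against 6.26 and 4.92, with later ICR values of 4.68 to 7.35 (median 5.90), and 8.10, 6.46 and 7.09 in SD. A less bright probe set of Jun had the same high array, at 7.13 against 5.30 and 5.57. Fos itself was 8.06 against 6.23 and 3.48, and later ICR arrays spanned 3.45 to 7.35 (median 6.12). For Fos the later ages therefore covered nearly the whole range of the 4-week lenses. Junb was 6.33 against 4.47 and 4.51. Jund and Maff did not share the pattern, with excesses over the higher other array of 0.79 and 0.42 on the log2 scale.

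The EGR factors, zinc finger proteins that bind GC-rich promoters, differed in level. Egr1 was 8.79 in replicate 2 against 6.10 and 4.23, a 6.47-fold excess, with later ICR values of 3.75 to 7.04 (median 6.05) and 8.43, 5.39 and 5.50 in SD. Egr3 stood at 4.40 against 2.75 and 3.10 and was the nearest member above 2-fold (excess 1.30). Egr2 (3.85 against 2.81 and 3.04) was short of it, and both Egr2 and Egr3 stayed under the limit of detection.

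The NR4A orphan nuclear receptors, which act without a known ligand, included 2 members with the pattern. Nr4a1 was 6.21 in replicate 2 against 3.73 and 3.15, with all 6 later ICR values between 3.14 and 3.96 (median 3.82), and SD gave 5.38, 3.77 and 3.77. Nr4a3 was 5.51 against 2.84 and 3.50, later ICR values were 2.52 to 3.88 (median 3.17), and SD gave 5.46, 2.35 and 3.53. Both genes were above detection in the same pair of arrays and in no other. Nr4a2 reached 4.49 against 3.58 and 3.32.

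Of the 4 KLF factors only Klf6 passed 2-fold, at 7.99 in replicate 2 against 6.17 and 6.15, and at 6.55 to 7.47 in the later ICR arrays (median 6.80). Klf2 (4.96 against 3.62 and 4.01) was the nearest below that line, with an excess of 0.96. Klf4 and Klf10 had excesses of 0.89 and 0.23.

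Among other nuclear regulators, Nfkbiz, an atypical IkB protein that acts in the nucleus, was 5.75 in replicate 2 and 2.84 in both other 4-week arrays, an excess of at least 1.68-fold. Its later ICR values ran from 2.53 to 3.79 (median 2.99), and SD gave 5.61, 3.26 and 3.30. Csrnp1 was 5.16 against 3.06 and 2.63, within 3.06 to 3.36 (median 3.23) at later ages in ICR, and 4.54, 2.64 and 3.61 in SD. Ier2 was 6.14 against 4.15 and 3.71. In all 3 genes replicate 2 alone stood clear of the remaining ICR arrays. Myc, Per1, Ier5 and Bhlhe40 were below 2-fold, with excesses of 0.55, 0.32, 0.10 and 0.50.

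The genes of mRNA decay and growth restraint showed it in 5 of 6 members. Zfp36, which destabilizes AU-rich transcripts including those of other early genes, was 6.55 in replicate 2 against 4.48 and 3.98. In the later ICR arrays Zfp36 ran from 4.07 to 5.97 (median 4.73), and SD gave 7.09, 4.37 and 3.66. Its relatives Zfp36l1 (5.68 against 3.82 and 3.26) and Zfp36l2 (7.24 against 5.90 and 5.10) had the same high array, although the less bright probe set of Zfp36l2 gave only 5.62 against 5.29 and 5.23. Btg2, an antiproliferative partner of the deadenylase complex, was 7.76 against 5.73 and 4.55, with 4.10 to 6.13 later in ICR (median 5.60) and 7.93, 5.12 and 5.49 in SD. Ifrd1 was 6.21 against 4.28 and 3.13, with 2.74 to 4.43 later (median 3.26) and 6.10, 3.22 and 3.12 in SD. The exception was Btg1, where replicate 2 (6.70) was the lowest of the 4-week arrays (7.00 and 6.86 in the others).

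The 9 feedback inhibitors were less uniform. Dusp1, the phosphatase that switches off MAP kinases, was 7.77 in replicate 2 against 6.18 and 4.98, with later ICR values of 4.25 to 7.29 (median 5.89) and 7.46, 4.86 and 6.39 in SD. Socs3, an inhibitor of cytokine receptors, was 6.16 against 4.78 and 4.27, with 4.09 to 5.87 later (median 4.93) and 6.03, 4.18 and 4.41 in SD. Tnfaip3, a ubiquitin-editing inhibitor of NF-kB, was 5.17 against 4.24 and 3.94, with 3.42 to 4.06 later (median 3.83) and 5.46, 3.34 and 3.45 in SD. Only Dusp1 and Socs3 passed 2-fold here, and Gadd45b was nearly equal in replicates 2 and 1 (6.27 and 6.18 against 4.66 in replicate 3). Of the remaining members, Rhob (7.11 against 6.51 and 5.31) did not pass and the protease gene Adamts1 (5.27 against 3.80 and 3.84) did.

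**Figure D2:**
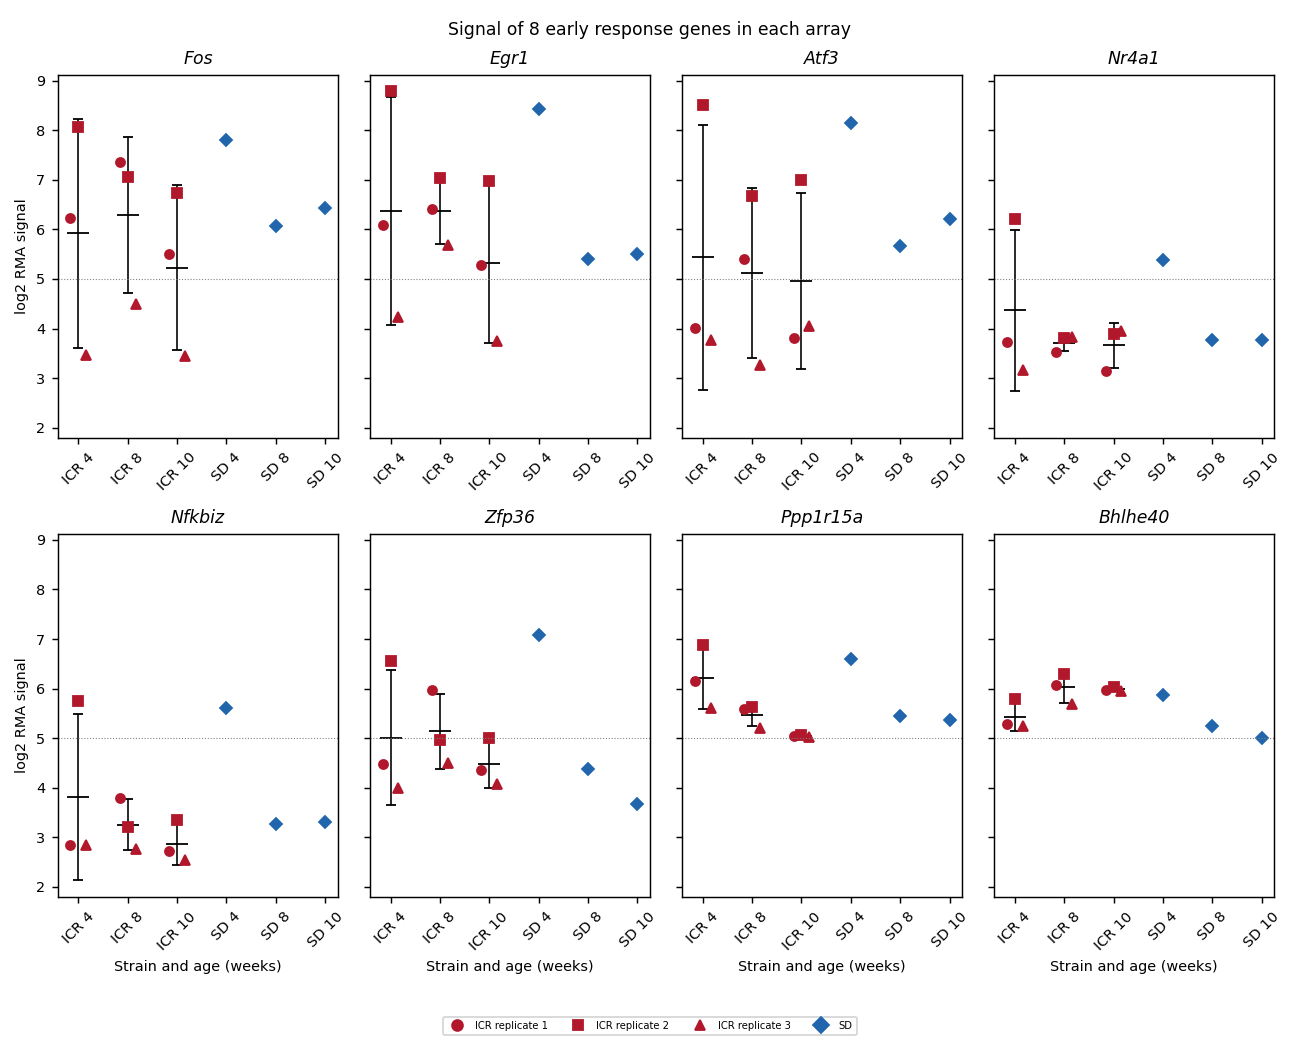
Log2 RMA signal of 8 members by strain and age in weeks, with a point for each array (circle, square and triangle for ICR replicates 1, 2 and 3, diamond for SD), bars for the ICR mean and SD of 3 arrays, and a dotted line at the detection limit of 5. In Nr4a1 and Nfkbiz only ICR 4-week replicate 2 and SD at 4 weeks lie above 5, and Bhlhe40 has its 4-week ICR arrays at the lower end.

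The SD lens at 4 weeks showed a like set of genes. Here 25 of 41 members were more than 2-fold above the mean of the SD arrays at 8 and 10 weeks, where 0.55% of all named genes were (1.09% of those that reached 5 in ICR). The median excess was 1.22 against 0.13 over genes that reached 5 in SD, and 38 of 41 were above the later mean (50.0% of all genes), all but Myc, Dusp6 and Adamts1. With every signal under 5 set to 5, 17 members remained (0.165% of all named genes). Egr1, Btg2 and Atf3, which were above detection at all 3 ages in SD, had excesses of 7.93-, 6.16- and 4.66-fold. Where a later SD value lay under 5 the excess was at least 4.25-fold for Zfp36, 3.38-fold for Dusp1, 2.14-fold for Ifrd1 and 2.04-fold for Socs3, and at least 1.53-fold for Nfkbiz, 1.38-fold for Tnfaip3 and 1.37-fold for Nr4a3. The last 3 therefore do not show 2-fold against the limit of detection. With 1 array per age this difference has no replicate check.

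Of the 21 members past 2-fold in ICR replicate 2, 20 were also past it in SD at 4 weeks, which is 95.2% of the first list and 80.0% of the 25 in the second. Adamts1 was alone in the first, with 4.01 in SD at 4 weeks against 4.89 and 3.75 later. Tnfaip3, Ier3, Gadd45b, Ppp1r15a and Rhob were in the second only. The remaining 15 passed in neither array. They hold every member that never reached detection apart from Egr3, but also Jund, Bhlhe40 and Btg1, which were detected in all 12 arrays. With signals under 5 set to 5, Nr4a1 and Ier2 passed 2-fold in ICR replicate 2 alone. Egr3, Nr4a3, Csrnp1, Nfkbiz and Zfp36l1 then passed in neither array, and the other shared members still passed in both. The share of this overlap over all genes was not computed. Across the 41 members the excesses of the 2 arrays, each against its own strain, correlated with r = 0.73, against 0.45 across 4656 genes that reached 5 in any array. Genes on an array are not independent, so no p is given. The list was chosen for its levels in these arrays, so its higher r may follow from that choice and is a description only.

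**Figure D3:**
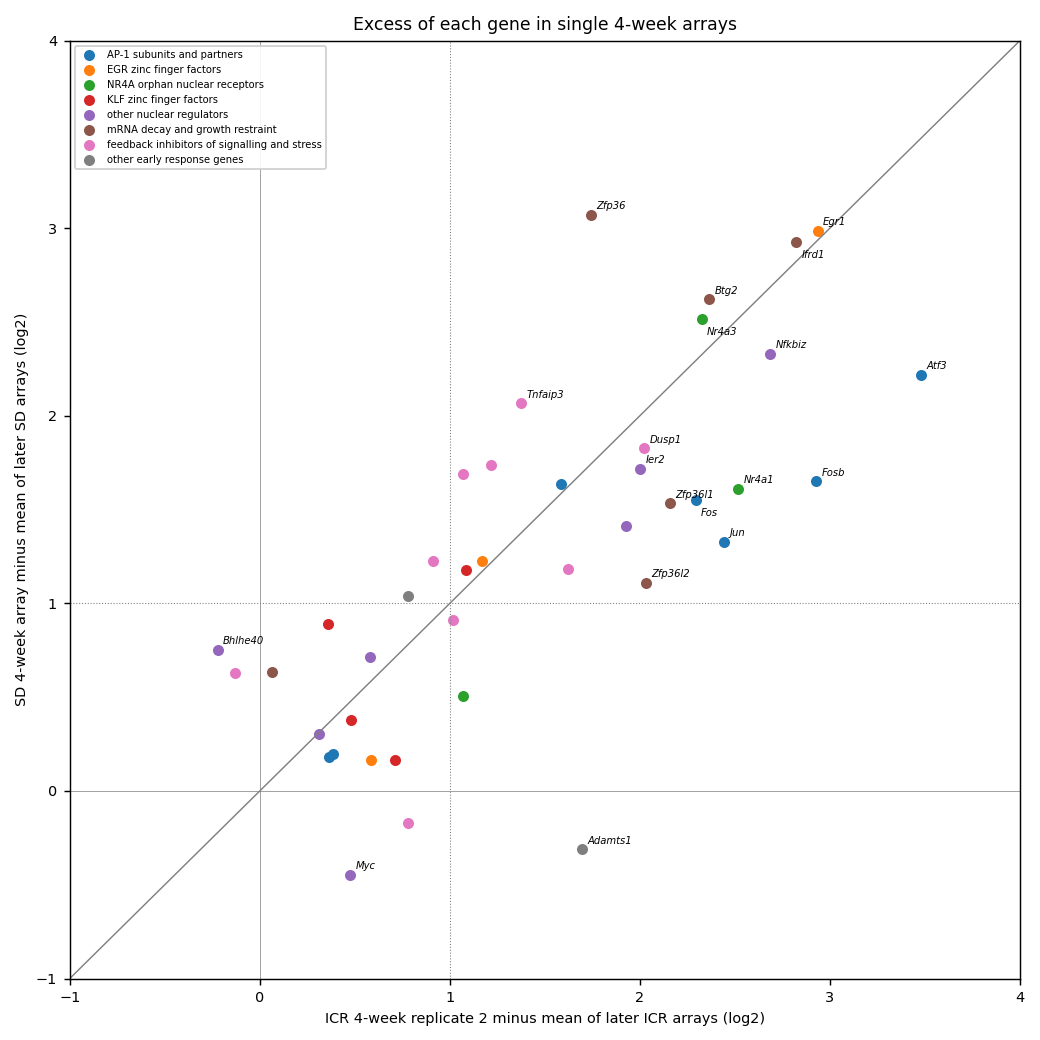
Each point is 1 of 41 members, with the log2 excess of ICR 4-week replicate 2 over the mean of the later ICR arrays on the x axis and that of the SD 4-week array over the mean of the later SD arrays on the y axis, coloured by role. The solid line marks equal excess and the dotted lines 2-fold, and Zfp36 and Adamts1 lie farthest above and below the line of equal excess.

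Markers of other tissues were read beside these arrays. Of 23 measured genes of the ciliary body, zonule and iris, 4 (Fbn1, Enpp2, Ltbp2 and Zic1) were more than 2-fold above both other 4-week arrays in replicate 2, and 0 of 23 in the SD 4-week array by the SD measure. Against the mean of the later ICR arrays, 9 of the 23 passed 2-fold in replicate 2, beside 26 of the 41 members, and the share over all genes was not computed. The 9 were Slc26a4, Fbn1, Zic1, Enpp2, Tyrp1, Mfap4, Slc13a3, Ltbp2 and Col9a1, with Ltbp2 under 5 in every array. Other genes of the list went the other way. Ptgds was lowest in replicate 2, at 8.41 against 10.63 and 9.67, as was Efemp1, at 6.22 against 7.56 and 6.46. Mfap2 was 5.07 in replicate 2 against 6.43 in replicate 1. The summed log2 level of the 23 measured genes was 84.8 to 99.9 in ICR at 4 weeks with replicate 2 highest, 77.3 to 91.1 later and 81.4 to 96.0 in SD. Zic1 was 5.50 in replicate 2 against 3.95 and 3.66, while the pigment cell genes Tyr, Pmel, Dct, Mlana and Tyrp1 stayed under 5 in every array. Of 8 photoreceptor and retinal glia genes, none passed 2-fold in replicate 2, and 2 did in SD at 4 weeks. In the fit of 4 weeks against the later ICR arrays the 10 tested ciliary genes had a median difference of 1.09, against 0.08 over all genes tested, and 7 had an unadjusted p under 0.05 (474 of 4572 genes), with 0 called. With the replicate block 1 was higher (Mfap2, 5.56% of genes) and 1 lower (Ptgds, 1.51% of genes) at 4 weeks, and 7 of 10 were lower at 10 weeks than at 4 weeks (7.41% of genes). Of the 9 measured heat shock genes, 0 passed 2-fold in either array. In the fit of 4 weeks against later without the block, 0 of the 7 tested were called. With the block, Dnajb1 and Hspd1 were higher at 4 weeks (0.45 and 0.49, limma adjusted p = 0.0212 and 0.0466), where 5.56% of genes were higher. Hspb1 was lower (-0.51, limma adjusted p = 0.0224), where 1.51% of genes were lower. The part of other tissues in the member levels was not tested.

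No member had its 3 ICR 4-week arrays all above the 6 later ones (2.12% of all genes did, 5.47% of those that reached 5), and none had them all below (1.62% and 1.07%). Within each replicate number, the 4-week array lay above both later arrays in all 3 numbers for 5 members, against 7.24% of all genes and 17.6% of those that reached 5. They were Ppp1r15a, Tnfaip3, Zfp36l2, Adamts1 and Ier5. These 5 of 41 members are a larger share than that of all genes and a smaller one than that of genes that reached 5. Ier5 stayed under 5 in every array, and Tnfaip3 and Adamts1 reached 5 in ICR only in 4-week replicate 2. Ppp1r15a, the phosphatase subunit that ends the integrated stress response by acting on eIF2 alpha, stood at 6.16, 6.88 and 5.62 in replicates 1 to 3 at 4 weeks. At 8 weeks it stood at 5.59, 5.62 and 5.21, and at 10 weeks at 5.05, 5.06 and 5.03. Group means ± SD were 6.22 ± 0.64, 5.47 ± 0.23 and 5.05 ± 0.02 (n = 3 each), and only the lowest 4-week value fell within the 8-week range. Ppp1r15a and Tnfaip3 were lower at each later age in all 3 numbers (2.1% of all genes), and SD gave 6.59, 5.45 and 5.37 for Ppp1r15a.

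Bhlhe40, a helix-loop-helix repressor tied to the circadian clock, and Jund had the 4-week array below both later arrays in every number. These 2 of 41 members are no larger a share than the 6.52% of all genes. Bhlhe40 was 5.44 ± 0.30 at 4 weeks, 6.02 ± 0.31 at 8 weeks and 5.98 ± 0.04 at 10 weeks (SD, n = 3), and 5.88, 5.24 and 5.005 in SD. Its 4-week level was thus below the later levels in ICR and above them in SD, with only the ICR 4-week replicate 2 value (5.78) inside the later ICR range of 5.69 to 6.30. The widest group was Atf3 at 4 weeks, at 5.43 ± 2.68, and the SD at 4 weeks was over 2 also for Fos and Egr1 (2.31 and 2.29).

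At 10 weeks against 8 weeks in ICR, a comparison that the choice of members did not use, 0 of the 30 members tested were called (limma, 2-sided, Benjamini-Hochberg adjustment). Of these 30, 11 entered the fit only through 4-week replicate 2. Of the 4572 genes tested 0.0% were called, 90 genes had an unadjusted p under 0.05, and no member did. The median difference was -0.38 over the members and -0.03 over all genes tested. Dusp1 had the smallest p, at 6.36 ± 0.81 at 8 weeks and 5.14 ± 0.91 at 10 weeks (SD, n = 3, difference -1.22, SE 0.75, limma adjusted p = 1.0). With the replicate number as a block 11 genes were lower at 10 weeks (0.241%), again with 0 members, and 6 of 30 members had an unadjusted p under 0.05, as had 424 of the 4572 genes, with Fos first (difference -1.07, SE 0.35, limma adjusted p = 0.398). In all 3 numbers 14 members were lower at 10 weeks than at 8 weeks (13.5% of all genes, 19.3% of those that reached 5). They were Fos, Fosb, Jun, Junb, Egr1, Klf10, Ier2, Zfp36l1, Dusp6, Tnfaip3, Ier3, Sik1, Gadd45b and Ppp1r15a, whereas Maff and Nr4a3 were higher in all 3 (13.5%). Of these, Klf10, Ier2, Zfp36l1, Dusp6, Tnfaip3, Sik1, Maff and Nr4a3 lay under 5 in every ICR array at 8 and 10 weeks. Their direction rests on signals under the limit of detection.

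ICR and SD were compared at 8 and 10 weeks with age as a term, over 6 and 2 arrays. Of the 19 members tested 0 were called, while 13 of 4365 genes (0.298%; 0.137% higher in ICR and 0.16% lower) were, and 300 genes had an unadjusted p under 0.05, Bhlhe40 among them as the only member. Bhlhe40 averaged 6.004 in ICR and 5.12 in SD, a difference of 0.88 (SE 0.17, limma adjusted p = 0.151). Both SD values lay below all 6 ICR values for Bhlhe40 and Errfi1, 2 of the 41 members, which is close to the 4.98% of all genes. Errfi1, an inhibitor of the EGF receptor, ran from 4.42 to 4.93 in ICR and stood at 4.12 and 3.95 in SD, under detection in both. The median strain difference was 0.09 over the members and 0.12 over all genes tested.

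The levels at 8 and 10 weeks also differed by replicate number, which was noticed in the values and then tested, so this comparison was chosen after they were seen. Replicate 2 was highest at both ages in 15 members (12.2% of all genes, 8.71% of those that reached 5), and the same 15 had it highest at 4 weeks too. Replicate 3 was lowest at all 3 ages in 18 members (4.15% of all genes, 8.42% of those that reached 5), Fos, Egr1, Jun and Btg2 among them. In a fit of the 6 later ICR arrays with age as a term, replicate 2 stood above replicate 3 for 3 of 4278 genes (0.0701%), and all 3 were members out of 19 tested. They were Fos (difference 2.92, SE 0.30), Fosb (1.70, SE 0.19) and Jun (2.20, SE 0.25), each with a limma adjusted p of 0.042.

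Fos measured 7.35, 7.06 and 4.49 in replicates 1 to 3 at 8 weeks and 5.50, 6.73 and 3.45 at 10 weeks. Fosb measured 4.80, 5.56 and 3.86 at 8 weeks and 3.73, 5.16 and 3.45 at 10 weeks. Jun measured 6.28, 7.35 and 5.51 at 8 weeks and 4.97, 7.24 and 4.68 at 10 weeks. At either age replicate 3 was lowest for all 3 genes, and replicate 2 was highest apart from Fos at 8 weeks. The calls did not hold with each array centred on its median (0 genes, adjusted p = 0.085) or with no filter on low signals (0 genes, adjusted p = 0.47), nor without 8-week replicate 2 (0 genes) or without 10-week replicate 2 (0 genes). The Fos difference itself was 2.93 with median centring, 2.92 with no filter, 3.48 without 8-week replicate 2 and 2.37 without 10-week replicate 2.

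Replicate 1 was above replicate 3 for 7 of 19 members and below it for 0, where 32.8% of genes tested were higher and 3.3% lower. The 7 were Fos, Ier3, Rhob, Gadd45b, Junb, Fosb and Egr1, and 7 of 19 is close to that background share. Ier3, which modulates survival signals, measured 5.80, 5.25 and 4.82 in replicates 1 to 3 at 8 weeks and 5.39, 4.63 and 4.02 at 10 weeks (replicate 1 minus 3: 1.18, SE 0.15, limma adjusted p = 0.000737). Replicate 2 was above replicate 1 for 6 members (Jun, Fosb, Atf3, Jund, Klf6 and Egr1; 3.97% of genes) and below it for Btg1 and Ier3 (34.1% of genes). Atf3 measured 5.41, 6.67 and 3.27 at 8 weeks and 3.82, 7.00 and 4.05 at 10 weeks (replicate 2 minus 1: 2.22, SE 0.47, limma adjusted p = 0.00716). Arrays of 1 number share whatever the number marks, so these p-values measure the spread within a number over 2 ages. The comparison by number, and Ier3 within it, were chosen after the values were seen, so these p-values are no independent test.

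**Figure D4:**
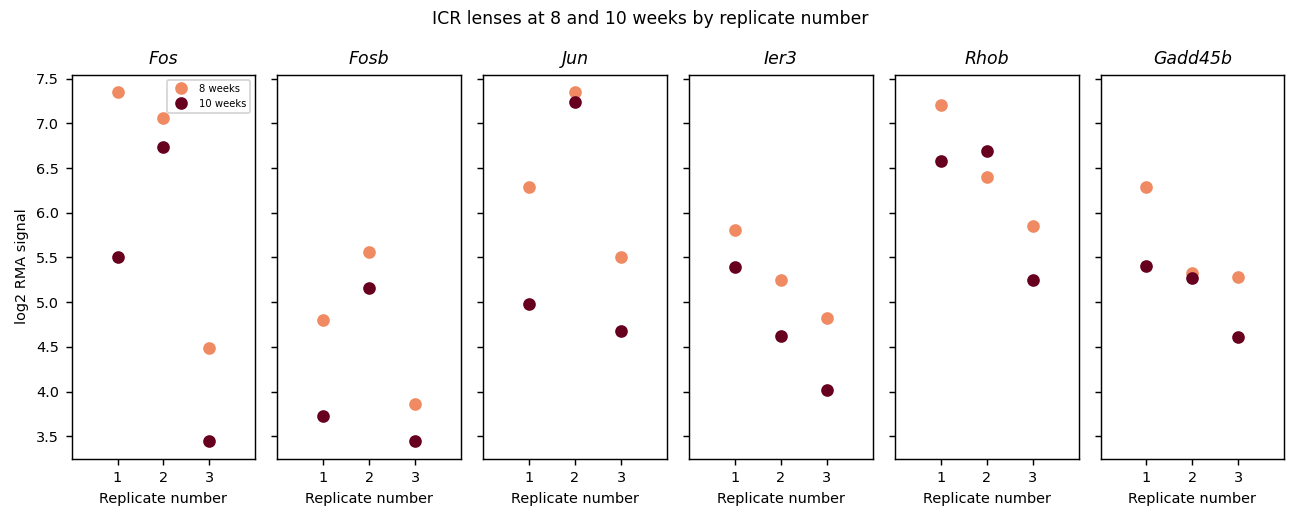
Log2 RMA signal of 6 members in the ICR arrays at 8 weeks (light) and 10 weeks (dark) by replicate number, 1 point per array. Fos, Fosb and Jun are higher in replicate 2 than in replicate 3 at both ages, and Ier3 and Gadd45b are highest in replicate 1.

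Members also differed in how closely they followed each other outside the 2 high arrays. Against the mean of the 31 members that reached 5 in any array, which includes the gene itself, Btg2 had the highest correlation over the 12 arrays (r = 0.99) and Btg1 and Bhlhe40 the lowest (0.20 and 0.27). With ICR 4-week replicate 2 and SD 4-week left out, r over the remaining 10 arrays was 0.96 for Fos and Btg2, 0.94 for Egr1, 0.87 for Jun and 0.31 for Ppp1r15a. Over the 8 arrays at 8 and 10 weeks alone r was 0.95 for Fos and Btg2, 0.93 for Egr1, 0.84 for Jun and 0.67 for Ppp1r15a. Fos, Egr1, Btg2 and Jun thus varied with the member mean among the later lenses as well. Nr4a1, Nr4a3 and Csrnp1 lay under 5 in all of these arrays, so no r is given for them. These are descriptions over arrays that share replicate numbers and ages, with no p.

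Of other genes that reached 5, the 10 with the profile most like that mean were Ccnl1 (r = 0.96), Cxcl1 (0.96), Irf1 (0.96), Ccn1 (0.92), Jmjd1c, Nfkbia, Zbtb10, Tob1, Cxcl10 and Wdr86 (0.90 to 0.92). Over the 10 arrays r was 0.93 for Ccnl1, 0.58 for Zbtb10 and 0.70 for Tob1. The others lay under 5 in all of these 10 arrays, so no such r is given for them. Ccnl1, a cyclin tied to RNA splicing, was 6.52 in ICR 4-week replicate 2 against 5.05 and 3.96, and 6.89, 4.40 and 4.97 in SD. Cxcl1, a chemokine, was 5.48 against 4.03 and 3.80, and 5.69, 4.11 and 4.00 in SD. Both were picked for likeness to a mean that is itself highest in this pair of arrays, so their high values there follow from the choice.

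From a wider list of 70 early response genes that are not members, 63 were measured. Of these, 9 were more than 2-fold above both other 4-week arrays in replicate 2 (0.489% of all named genes). In SD at 4 weeks 11 were more than 2-fold above the later mean (0.55%). Ccn1, Ccnl1, Cxcl1, Nfkbia, Plk2, Gem, Irf1 and Rnd3 were in both counts, with Plk2 and Gem under a signal of 5 in every array. In the fit of 4 weeks against the later ICR arrays, 0 of 23 tested genes of this list were called, against 6 of 4572 genes (0.131%). With the replicate block 1 was higher at 4 weeks, Trib1, a pseudokinase that restrains MAP kinase signalling (difference 0.59, SE 0.13, limma adjusted p = 0.0267), where 5.56% of genes were higher and 1.51% lower. Of 36 receptors, kinases and factors that switch early genes on, 17 were tested and 0 were called at 4 weeks against later with or without the block. With the block Shc1, an adaptor of growth factor receptors, was lower at 10 weeks than at 4 weeks (-0.58, limma adjusted p = 0.0399). This 1 of 17 is no larger a share than the 7.41% of genes that were lower there. Among the later arrays 16 were tested by replicate number. The kinases Araf and Map2k2 were higher in replicate 1 than in replicate 3 (32.8% of genes) and than in replicate 2 (34.1%). These 2 of 16 lie below the background share. Srf was higher in replicate 2 than in replicate 1 (3.97% of genes). None of the 29 measured, Srf, Elk1 and the Fgf receptors among them, was past 2-fold in either 4-week array. Their summed log2 level ran from 143.0 to 147.6 at 4 weeks and from 142.7 to 145.2 later in ICR.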

How the data were processed

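RNA of 9 ICR and 3 SD rat lenses was measured on GeneChip Rat Gene 2.0 ST arrays, and groups were taken from the labels. The authors ran the RMA algorithm in R and deposited 36685 log2 signals per array, 1 for each probe set. Which RMA package was used, in what version, and whether it took the 12 arrays together is not given in the sources used here. The platform annotation gives 1 symbol to 18511 probe sets and several to 575, and does not list 17599. The supplementary tables of the study named another 30, of which 343 of 352 lines equalled 1 probe set within 0.0006, which gave 18195 genes. Where a gene had several probe sets (292 genes), the brightest over the ICR arrays was taken.

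Genes were tested if they reached a signal of 5 in at least 1 array of the comparison, with limma 3.58.1 (lmFit and eBayes, R 4.3.3), 2-sided, and Benjamini-Hochberg adjustment over all genes tested to a threshold of 0.05. The fit of the ages held the 9 ICR arrays without a block. ICR and SD were compared over the arrays at 8 and 10 weeks with age as a term. The contrast of 4 weeks with later ages was used to choose the members, so no p is given for them there. Replicate numbers pair the ICR samples, because deviations of same-numbered arrays from their age groups correlated with r over 0.1 in every pair, so fits with the number as a block are given where they change a count.

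The members and lists were chosen with earlier results of these data known. Values are given for the 10 members with the largest excess of ICR 4-week replicate 2, the 10 with the largest excess of SD at 4 weeks, and the 10 other genes most correlated with the member mean. Fos, Ppp1r15a, Bhlhe40, Errfi1, Ier3 and other members given in full outside that rule were chosen after their values were seen. The alternatives were other filters, quantile normalization, cyclic loess, median centring, trend and robust estimation, array weights, the mean of probe sets, unnamed probe sets kept, the replicate block and each array left out. The fits were tested on simulated data. Python 3.11.15 and matplotlib 3.10.9 drew the figures. Values of 1 marker gene are not reported here.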

Additional observations from a re-analysis of the deposited data

How the results depend on the processing

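No member was called at 10 against 8 weeks or between ICR and SD under any alternative run. At 10 against 8 weeks, array weights called 2 genes and the replicate block 11 in place of 0, and leaving out each array gave 0. Between strains the 13 calls became 20 with quantile normalization, 8 with median centring, 7 with unnamed probe sets kept, 8 when 3 arrays had to reach 5, 50 with array weights, and 2 to 11 with an array left out (2 without either SD array). The 21 members high in ICR 4-week replicate 2 became 12 when a signal of 5 was required in 3 arrays, and 24 to 30 against 1 other 4-week array. The 25 high in SD at 4 weeks became 16 with that filter and 23 without either later array. Members with all 4-week ICR arrays above all later ones numbered 1 in place of 0 with quantile normalization and 1 with median centring, and 0 to 5 with an array left out (5 without 4-week replicate 3). The median difference of 4 weeks from later ages, 0.34, ran from 0.28 to 0.39 under other processing of the signals as recorded. It was 0.17 with signals under 5 set to 5. With an array left out it ran from -0.22 to 0.71, being -0.22 without 4-week replicate 2. The comparison of replicate 2 with replicate 3 and all its alternatives were chosen after seeing the data. Its 3 genes, all members, became 11 genes with 6 members under quantile normalization, 13 genes under trend and robust estimation, 7 genes with 5 members when the 4-week arrays joined the fit, and 0 with median centring or no filter. Leaving out each array gave 0 to 21 genes and 0 to 6 members, with 0 without either replicate 2 array. The cause of these differences was not tested. With signals under 5 set to 5, chosen after seeing the data, the 21 and 25 members became 15 and 17. The deposited signals come with no background value, so the detection limit of 5 rests on the minimum below which the study left genes out, and it limits what can be said of the 10 members below it in every array.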
